A study of Caenorhabditis elegans with 9 samples.

Results

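The G1 cell cycle regulators described here are 10 genes of Caenorhabditis elegans that govern whether a cell leaves G1: cdk-4, cyd-1, cye-1, cdk-2, cki-1, cki-2, lin-35, efl-1, dpl-1 and fzr-1. They were chosen by name for their role, with earlier results of these data known. Among them are cdk-4 and cki-1, which the study had named as targets from these arrays. All 10 were measured, out of 17138 genes with a probe set annotated to 1 gene, and they account for 16 of the 20766 such probe sets. Each gene is given by the probe set with the highest mean signal over all 9 arrays, and the 6 genes with a further probe set are given by that one as well.

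In C. elegans, as in other animals, cyclin D and its kinase CDK-4 act first in G1, and cyclin E with CDK-2 acts at entry into S phase. Inhibitors of the CIP/KIP family hold these kinases back, while LIN-35, the worm relative of the retinoblastoma protein, represses genes of S phase together with the E2F and DP proteins EFL-1 and DPL-1 until CDK activity lifts that block. FZR-1, known in other animals as Cdh1, activates the anaphase-promoting complex in G1. In larvae these regulators set when seam cells, which divide as stem cells of the epidermis, and vulval precursor cells (VPCs) divide or rest.

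The arrays compared larvae in which Wnt signaling was conditionally raised or lowered, to find genes that respond to the pathway in seam cells and VPCs. There were 3 arrays of overactivation (deIs10; huIs1), 3 of underactivation (deIs10; deIs26) and 3 of the N2 control. huIs1 supplies ΔNTBAR-1, a β-catenin without its amino terminus, and deIs26 supplies ΔNTPOP-1, a TCF protein that cannot bind β-catenin. Both are driven by the hsp-16.2 heat shock promoter, which acts in most cells of the animal. Both of these strains also carry dpy-20(e1282) and unc-30(e191), dpy-20(+) and unc-30(+) rescue, ajm-1::gfp, and a bar-1 enhancer that drives FLAG-tagged PAB-1, a poly(A) binding protein, in seam cells and VPCs so that their mRNA can be immunoprecipitated. N2 is the wild-type strain and has neither the tag nor a transgene. All animals grew for 26 h at 20°, were kept at 37° for 30 min and recovered for 1 h, at a stage given as L2-L3. The methods describe the replicates of each strain as biological ones, with mRNA from animals grown in triplicate. N2 differs from the other strains in the tag and the strain background as well as the transgene, and these cannot be told apart in a comparison with N2.

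The values are log2 signals, so a difference of 1 is a 2-fold difference, and a difference was called at an adjusted p under 0.05 (limma, with the Benjamini-Hochberg adjustment taken over every probe set). pop-1 had log2 signals of 8.67 to 11.71 in underactivation, against 4.85 to 6.42 in N2, and bar-1 had 9.64 to 11.75 in overactivation, against 9.04 to 9.55 in N2. Arrays of 1 group correlated at 0.956 to 0.965 in overactivation, 0.969 to 0.976 in underactivation and 0.942 to 0.960 in N2. Underactivation replicate 4 was the array of the transgenic strains closest to an N2 array. It had the highest pop-1 signal, yet it correlated at 0.973 with N2 replicate 4, against 0.969 and 0.971 with the other arrays of its own group. A higher correlation outside the group was not particular to it. Overactivation replicate 3 correlated at 0.972 with underactivation replicate 2, against 0.965 with each other array of its group. Overactivation replicate 1 correlated at 0.970 with underactivation replicate 5, against 0.956 and 0.965 in its group. Differences that underactivation replicate 4 moved by a wide margin are given with and without it. Markers of other tissues were still present, and 2 of 6 body wall muscle genes (myo-3 and unc-54) fell in overactivation relative to N2 with all 9 arrays in the fit. N2 has no tag, so its immunoprecipitated material differs from that of the other strains. In a comparison with N2, selection of mRNA by the tag, fewer cells of a type and less RNA per cell cannot be told apart.

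Overactivation was set against N2 to ask which regulators change when Wnt signaling is raised. Of the 10 genes, 1 was called, cdk-4, which was higher. Among all genes measured 1.57% were called in either direction and 0.974% were called higher. At an unadjusted p under 0.05 there were 5 of the 10 genes, with cdk-4, cyd-1, cki-1 and efl-1 higher and dpl-1 lower, beside 17.3% of all genes. The arrays of overactivation and N2 did not overlap for those 5 genes and for cye-1, which makes 6 of 10, beside 20.5% of all genes. The median difference of the 10 genes was 0.33, beside 0.0687 over all genes, and their median absolute difference was 1.07, beside 0.287. In underactivation against N2, 0 of the 10 were called with limma, and so were 0% of all genes. There 3 genes (cyd-1, efl-1 and dpl-1) had an unadjusted p under 0.05, beside 12.7% of all genes. In overactivation against underactivation 0 of the 10 were called, beside 0.00583% of all genes, and only cdk-4 had an unadjusted p under 0.05, beside 5.9% of all genes. It was also the only gene of the 10 whose arrays did not overlap there, beside 12.1% of all genes. The first and second comparisons share the N2 arrays, and the first and last share the overactivation arrays, so they are not independent of each other.

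**Figure D1:**
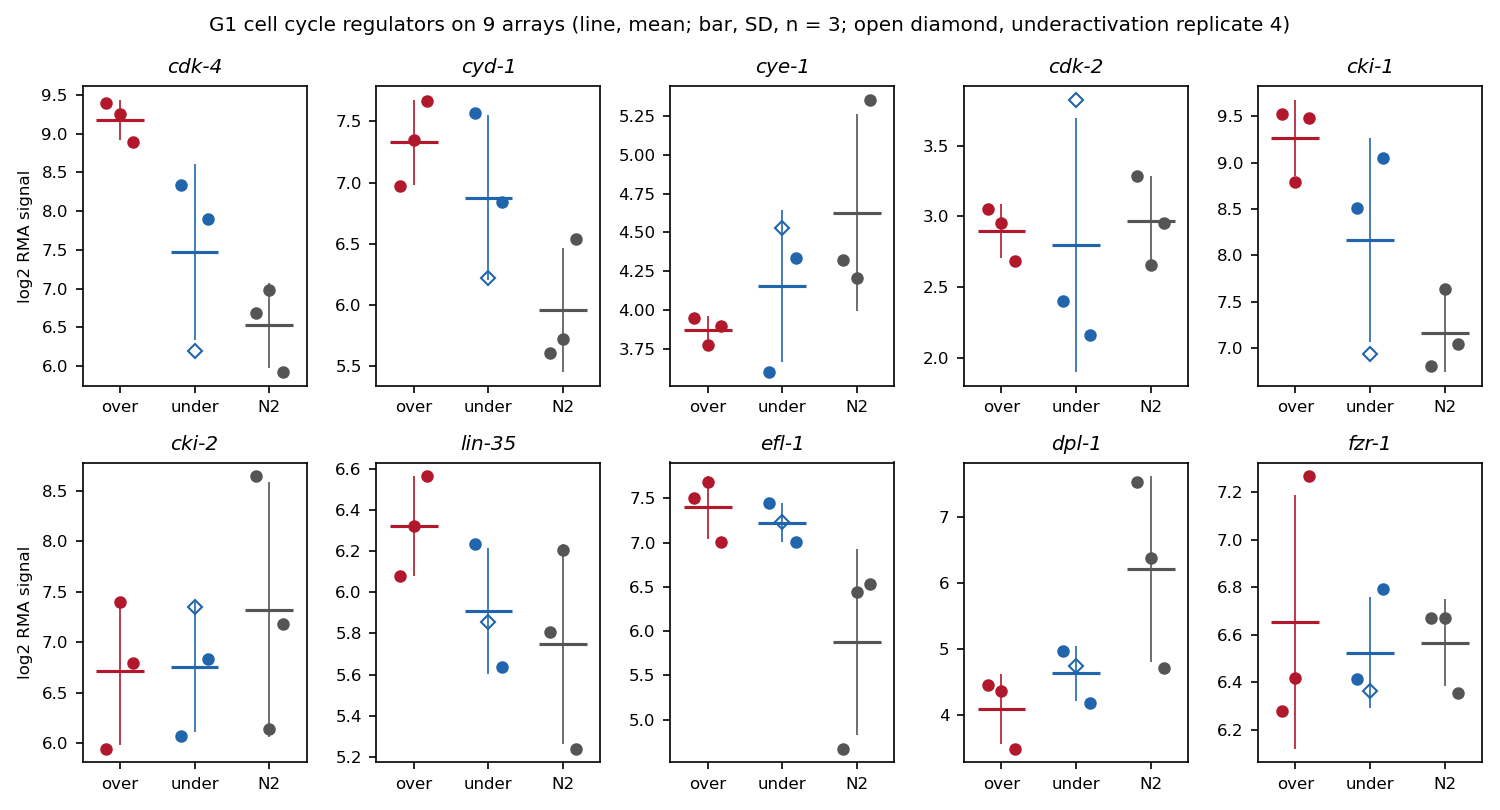
Log2 RMA signal of the 10 regulators on each array (y axis, a scale of its own in each panel), by group on the x axis (overactivation, underactivation, N2). Points are arrays, horizontal lines group means and vertical bars the SD (n = 3 each), and the open diamond is underactivation replicate 4, which lies with the N2 arrays for cdk-4 and cki-1.

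cdk-4 encodes the kinase partner of cyclin D. Its log2 signals were 9.40, 9.25 and 8.90 in overactivation, 8.33, 6.19 and 7.89 in underactivation, and 6.69, 6.98 and 5.92 in N2. All overactivation arrays were above every array of both other groups, and the underactivation arrays overlapped N2 only through replicate 4 at 6.19. The gene averaged 9.18 ± 0.26 in overactivation and 6.53 ± 0.55 in N2 (SD, n = 3 each). This is a rise of 2.65 on the log2 scale, or 6.30-fold (SE 0.52, 95% CI 1.47 to 3.84, limma adjusted p = 0.0485). Only 0.362% of genes had a larger absolute difference. The study named cdk-4 and cki-1 among its targets from these same arrays, so their differences here are not independent evidence of a direction. It also repeated the mRNA tagging and measured both genes by qPCR against the tagged deIs10 strain. There it reports both as upregulated in overactivation, and cdk-4 also as downregulated in underactivation. On the arrays the mean of cdk-4 in underactivation was instead above that of N2, by 0.94, with overlap. The reference strains differ, and the sizes of the qPCR changes were not compared with those of the arrays.

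Against underactivation, cdk-4 in overactivation was higher by 1.71 on the log2 scale, or 3.27-fold, with an interval of 0.52 to 2.90 that lies above 0, but it did not pass adjustment over all probe sets (limma unadjusted p = 0.01005, adjusted p = 0.656). Underactivation differed from N2 by 0.94 (95% CI -0.24 to 2.13, limma adjusted p = 0.52), which is not larger than the spread between arrays. With underactivation replicate 4 left out, underactivation minus N2 was 1.59 and overactivation minus underactivation 1.07. The call for overactivation against N2 was close to the threshold. It held in 1 of 9 fits with an array left out, the one without underactivation replicate 4 (limma adjusted p = 0.0200). The limma adjusted p was 0.105, 0.139 and 0.0801 without overactivation replicates 1, 3 and 4, 0.0572 and 0.0775 without underactivation replicates 2 and 5, and 0.0658, 0.0788 and 0.117 without N2 replicates 2, 3 and 4. In all 9 of these fits the difference lay between 2.35 and 2.88. A further probe set is listed to a pair of gene identifiers that both carry the name cdk-4 and was therefore not counted. It had 4.78, 5.49 and 5.22 in overactivation, 5.24, 4.39 and 4.26 in underactivation, and 4.44, 4.29 and 4.78 in N2. Here overactivation overlapped N2, as overactivation replicate 1 (4.780) was below N2 replicate 4 (4.784). The cdk-4 call therefore rests on the brightest probe set alone.

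cyd-1 encodes cyclin D, the activating subunit of CDK-4. On the log2 scale it read 6.98, 7.35 and 7.67 in overactivation, 7.57, 6.22 and 6.84 in underactivation, and 5.61, 5.72 and 6.54 in N2. The overactivation arrays were all above the N2 arrays and overlapped those of underactivation. Overactivation minus N2 was 1.38, or 2.60-fold (95% CI 0.50 to 2.25), which did not pass (limma adjusted p = 0.110). Underactivation minus N2 was 0.92 (limma adjusted p = 0.367), and 1.252 without underactivation replicate 4. Overactivation minus underactivation was 0.45, with an interval of -0.42 to 1.33, and 0.12 without underactivation replicate 4. The other cyd-1 probe set did not show the same order, with -0.33 for overactivation minus N2 and -0.74 for underactivation minus N2. By the brightest probe sets, cyclin D and its kinase both had higher signals in overactivation than in N2 on every array. Only the kinase was called. For cyclin D the rise was not seen with the other probe set, whose interval for overactivation minus N2 spans both signs (95% CI -1.40 to 0.74).

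cye-1 encodes cyclin E. The gene had log2 signals of 3.95, 3.77 and 3.90 in overactivation, 3.60, 4.53 and 4.33 in underactivation, and 4.32, 4.20 and 5.35 in N2. All overactivation arrays were below all N2 arrays, with a difference of -0.75 that did not pass (95% CI -1.54 to 0.03, limma adjusted p = 0.298). This depended on N2 replicate 4, without which the difference was -0.39. Underactivation minus N2 was -0.47, and overactivation minus underactivation -0.28, both with overlapping arrays. Without underactivation replicate 4 these were -0.66 and -0.094.

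cdk-2, the kinase that cyclin E activates, was at low signal on all arrays. It had 3.05, 2.96 and 2.68 in overactivation, 2.40, 3.83 and 2.16 in underactivation, and 3.29, 2.66 and 2.96 in N2. The groups overlapped, and underactivation replicate 4, at 3.83, was the highest array. The differences were -0.07 for overactivation minus N2, with an interval of -0.99 to 0.85, -0.17 for underactivation minus N2 and 0.10 for overactivation minus underactivation. Without underactivation replicate 4 the last 2 were -0.69 and 0.62. With 3 arrays a group, a true difference from N2 anywhere within this interval is not excluded. The interval is not a limit of detection, as larger differences, such as that of cki-1, were not called either. cdk-2 was the only gene of the 10 removed when the dimmest probe sets were left out.

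cki-1 encodes a CIP/KIP family inhibitor that holds larval precursor cells in G1. Its log2 signals were 9.53, 8.79 and 9.48 in overactivation, 8.51, 6.93 and 9.05 in underactivation, and 6.81, 7.63 and 7.04 in N2. The overactivation arrays were all above the N2 arrays, and they overlapped underactivation, whose replicate 5 at 9.05 was above overactivation replicate 3. The gene averaged 9.27 ± 0.41 in overactivation and 7.16 ± 0.42 in N2 (SD, n = 3 each), a difference of 2.11 on the log2 scale or 4.30-fold (95% CI 0.95 to 3.27), and it did not pass with all arrays (limma adjusted p = 0.0792). Without underactivation replicate 4, whose own value enters this comparison only through the shared estimate of the spread, the same difference passed (limma adjusted p = 0.0290). In the other 8 fits with an array left out it did not.

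Underactivation minus N2 was 1.01 for cki-1 (95% CI -0.15 to 2.17, limma adjusted p = 0.468), and overactivation minus underactivation was 1.099, or 2.14-fold (95% CI -0.06 to 2.26, limma adjusted p = 0.900). Without underactivation replicate 4 these were 1.62 and 0.48. With all arrays both intervals include 0, so neither difference was resolved. The other cki-1 probe set gave smaller differences in the same direction, 0.62 for overactivation minus N2, 0.09 for underactivation minus N2 and 0.53 for overactivation minus underactivation.

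**Figure D2:**
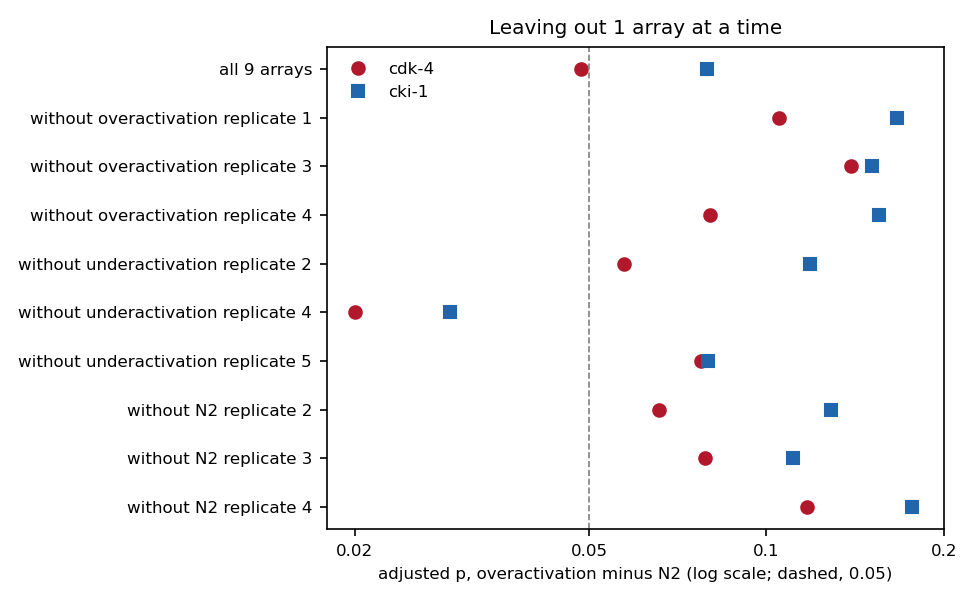
Adjusted p (x axis, log scale) of cdk-4 and cki-1 in overactivation minus N2 with all 9 arrays and with each array left out in turn (rows). With all arrays cdk-4 is at 0.0485 and cki-1 at 0.0792, and only without underactivation replicate 4 are both left of the dashed line at 0.05.

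cki-2 encodes the second inhibitor of this family and lies next to cki-1, with 0 protein-coding genes between them in the WBcel235 assembly. Its log2 signals were 5.95, 7.40 and 6.79 in overactivation, 6.07, 7.35 and 6.84 in underactivation, and 8.64, 6.14 and 7.18 in N2. The groups overlapped throughout, and the highest array was N2 replicate 2. The differences were -0.61 for overactivation minus N2 (95% CI -2.06 to 0.84, limma adjusted p = 0.677), -0.57 for underactivation minus N2 and -0.04 for overactivation minus underactivation. Without N2 replicate 2, overactivation minus N2 was 0.05, and without underactivation replicate 4, underactivation minus N2 was -0.87 and overactivation minus underactivation 0.26. The other cki-2 probe set was near the low end of the signal on all arrays, at 2.43 to 2.96, and its differences were between -0.16 and -0.02. The interval for cki-2 is wide, and it was not tested whether the neighbouring inhibitors differ in response.

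**Figure D3:**
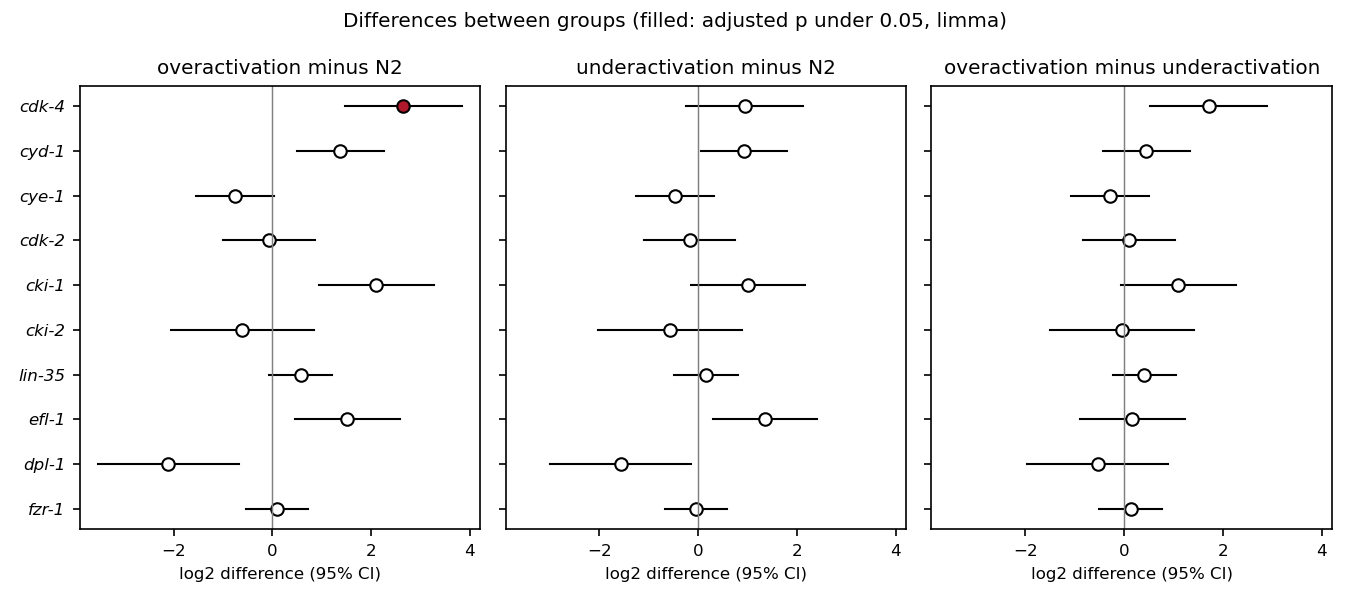
Log2 differences (x axis, with 95% CI from limma) of the 10 regulators in the 3 comparisons. Filled points have an adjusted p under 0.05, which is cdk-4 in overactivation minus N2 alone, at 2.65.

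lin-35 encodes the worm retinoblastoma family protein. Its arrays gave log2 signals of 6.08, 6.32 and 6.56 in overactivation, 6.24, 5.86 and 5.63 in underactivation, and 5.81, 6.20 and 5.24 in N2. The 3 groups overlapped, with overactivation minus N2 at 0.57 (95% CI -0.07 to 1.21, limma adjusted p = 0.333), underactivation minus N2 at 0.16 and overactivation minus underactivation at 0.41. Without N2 replicate 4, the lowest array, overactivation minus N2 was 0.315. With the other probe set these were 0.12, -0.38 and 0.50, and there every overactivation array was above every underactivation array.

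efl-1 encodes the E2F partner of LIN-35. Its log2 signals were 7.50, 7.69 and 7.01 in overactivation, 7.45, 7.23 and 7.002 in underactivation, and 4.67, 6.44 and 6.53 in N2. The arrays of both transgenic strains were all above those of N2, and efl-1 was the only gene of the 10 not to overlap between underactivation and N2, beside 15.8% of all genes. Overactivation minus N2 was 1.52, or 2.86-fold (95% CI 0.46 to 2.57, limma adjusted p = 0.135), and underactivation minus N2 was 1.35, or 2.54-fold (95% CI 0.29 to 2.40, limma adjusted p = 0.277). Overactivation and underactivation differed by 0.17, with an interval of -0.89 to 1.23. N2 replicate 2, at 4.67, carried much of the difference from N2, which was 0.91 for overactivation and 0.74 for underactivation without it. The other efl-1 probe set gave 0.31, 0.29 and 0.02 for the 3 comparisons.

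dpl-1 encodes the DP protein that pairs with E2F. It had log2 signals of 4.45, 4.36 and 3.49 in overactivation, 4.98, 4.75 and 4.18 in underactivation, and 7.52, 6.38 and 4.72 in N2. All overactivation arrays were below all N2 arrays, and underactivation overlapped N2 only through N2 replicate 4. Overactivation minus N2 was -2.11, a 4.31-fold lower signal (95% CI -3.53 to -0.68, limma adjusted p = 0.128), and underactivation minus N2 was -1.57 (95% CI -2.999 to -0.15, limma adjusted p = 0.343). Overactivation minus underactivation was -0.53, with an interval of -1.96 to 0.89. The overactivation difference was -2.85 without N2 replicate 4, where it passed (limma adjusted p = 0.0420), and -1.45 without N2 replicate 2. E2F and DP, which act as a dimer, thus had differences of opposite sign from N2, neither of them called and both with the N2 arrays widely spread (SD 1.05 for efl-1 and 1.41 for dpl-1).

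fzr-1 encodes the activator of the anaphase-promoting complex that works in G1. Its brightest probe set had log2 signals of 6.28, 6.42 and 7.27 in overactivation, 6.41, 6.36 and 6.79 in underactivation, and 6.67, 6.67 and 6.35 in N2. The groups overlapped, and the differences were 0.09 for overactivation minus N2 (95% CI -0.54 to 0.72), -0.04 for underactivation minus N2 and 0.13 for overactivation minus underactivation. The other probe set read 4.79, 5.04 and 5.63 in overactivation, 5.71, 6.99 and 6.43 in underactivation, and 5.54, 7.08 and 7.37 in N2. Here the overactivation arrays were all below the underactivation arrays, with a difference of -1.22 (limma unadjusted p = 0.0408, adjusted p = 0.862), and overactivation minus N2 was -1.51, with overlap (limma adjusted p = 0.165). For overactivation minus N2 the fzr-1 probe sets therefore differ in sign, as do those of cyd-1. The intervals of the brightest fzr-1 probe set and of the other cyd-1 probe set (-1.40 to 0.74) span both signs, so neither has a resolved direction. Those of cki-1, cki-2, lin-35 and efl-1 differ in size but not in sign.

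**Figure D4:**
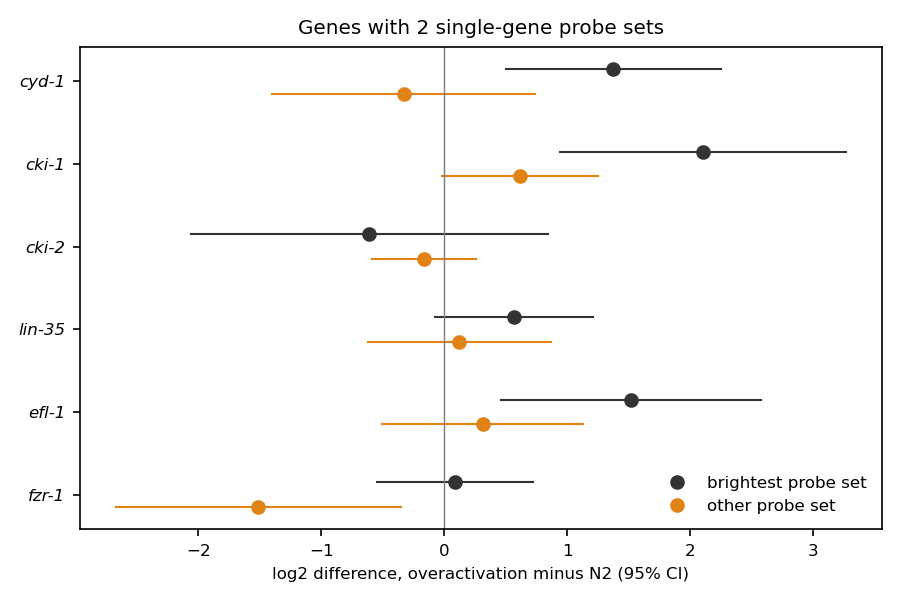
Log2 difference of overactivation minus N2 (x axis, with 95% CI) for the 6 genes with a further single-gene probe set. Dark points are the brightest probe set and orange points the other one, which is nearer 0 for cki-1 (0.62, against 2.11) and lies on the other side of 0 for cyd-1 and fzr-1.

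The fold and P criteria of the study's rule for a target were also applied to the 10 genes, namely a signal in overactivation at least 1.5-fold that of N2 and of underactivation, with an unadjusted P of at most 0.05, taken here for overactivation against N2. The rule also asks for present and increased calls, which were not used here, so the genes counted are not the study's own selection. These criteria were met by 2 of the 10, cdk-4 and cki-1, beside 1.81% of all genes. The study had already named both as targets from these same arrays with such criteria. This share was therefore largely set beforehand and is not independent evidence. Of these criteria, cyd-1 met the others and missed the fold over underactivation, at 1.37, and so did efl-1, at 1.13. With a moderated P adjusted over all probe sets, 1 gene met them, cdk-4, and with a lower fold threshold 3 did, cyd-1 being the added one.

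Across the 9 arrays the signals of cdk-4 and cki-1 ran close together, with a Pearson r of 0.923, as a description over arrays that share the group differences. The genes most like cdk-4 out of 17137 were nck-1, which encodes an SH2/SH3 adaptor, with r = 0.972, nspe-5 with r = 0.972 and lin-1, an ETS transcription factor of vulval fate, with r = 0.964. Those most like cki-1 were clc-5, a claudin-like gene, with r = 0.976, twk-5, a potassium channel family gene, with r = 0.974 and F43G9.13 with r = 0.962. Both cdk-4 and cki-1 were low on underactivation replicate 4, which fell below the mean of the other underactivation arrays by 1.93 for cdk-4 and 1.85 for cki-1. This array lay within the range of the N2 arrays for 8 of the 10 genes, all but cdk-2 and efl-1.

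An array control moved with these signals. The actin control on the chip is read at its 3′ and 5′ ends, and a larger 3′ minus 5′ difference goes with shorter or less complete material. It was 1.88, 2.25 and 1.47 in overactivation, 2.08, 0.90 and 2.35 in underactivation, and 0.67, 0.80 and 0.91 in N2. The only underactivation array within the N2 range was replicate 4, which is also the one low in cdk-4 and cki-1. For Gapdh the same difference was 3.20 to 3.60 in overactivation, 2.87 to 4.06 in underactivation and 2.02 to 2.96 in N2. By Gapdh, underactivation replicate 2 (2.92) lay within the N2 range as well as replicate 4 (2.87). Replicate 2 was not low in these genes, at 8.33 for cdk-4 and 8.51 for cki-1, so the array-by-array match was seen for actin only. The part of this control in the differences of cdk-4 and cki-1 was not tested.

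**Figure D5:**
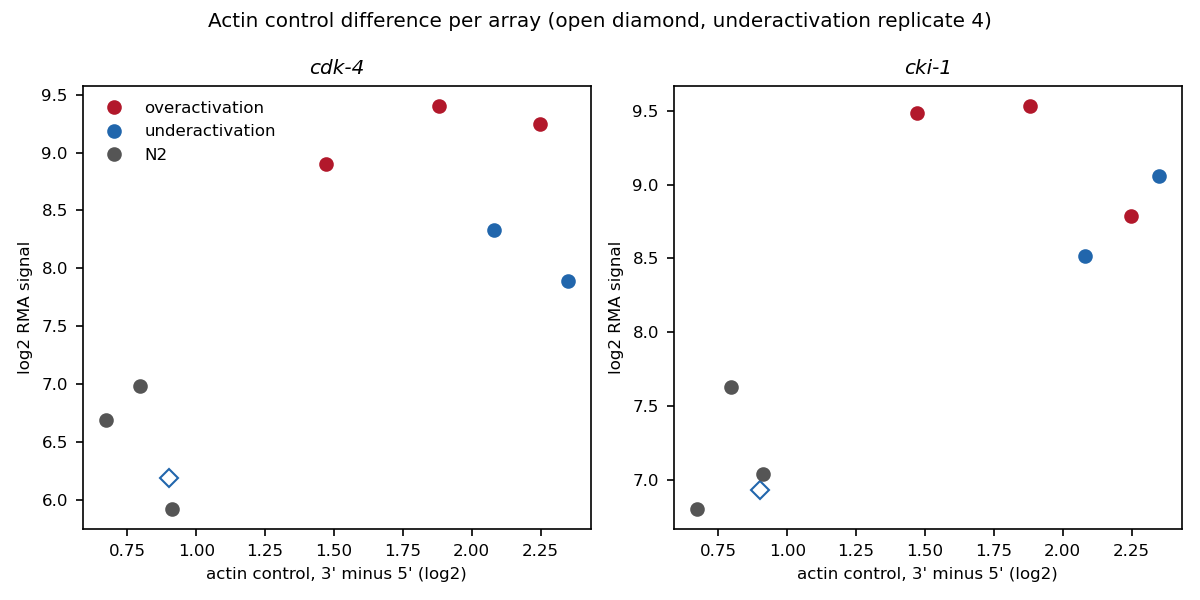
Log2 RMA signal of cdk-4 and cki-1 (y axes) against the actin control's log2 difference between its 3′ and 5′ probe sets (x axis), 1 point for each array. The N2 arrays and underactivation replicate 4 (open diamond) lie at 0.67 to 0.91 with low signals of both genes, and the other 5 arrays at 1.47 to 2.35 with high signals.

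Cell type markers were read from the same arrays. The linear signals of 7 seam cell markers, summed, were 7221, 7195 and 6401 in overactivation, 5237, 3370 and 6386 in underactivation, and 3956, 4613 and 3103 in N2. Overactivation was above N2 on every array, and underactivation replicate 4 lay within N2. The sum rests largely on grd-10, which made up 38.1 to 85.4% of it, and without grd-10 the groups overlapped, with 1328 to 3099 in overactivation, 1347 to 2210 in underactivation and 579 to 1921 in N2. The brightest gene left on every array was then wrt-2. Its log2 signals were 9.61 to 11.325 in overactivation, 9.86 to 10.91 in underactivation and 8.02 to 10.63 in N2, so this overlap does not speak for all 6 remaining genes. The 7 genes had a median difference of 0.94 from N2 in overactivation, and 0 of them were called (limma). At an unadjusted p under 0.05 were 2 of the 7, egl-18 and elt-6, beside 17.3% of all genes. These are GATA factor genes that the study names as Wnt targets found with this method, so they are not independent markers of seam cell content here. Of the 7 genes, 5 were above N2 in overactivation and 3 in underactivation. Of the defining seam markers, ceh-16 was low, at 3.67 to 3.92 in overactivation, with a difference of -0.83 from N2. For rnt-1 the difference from N2 was -0.095 in overactivation and -1.05 in underactivation. The 5 VPC markers summed to 1368 to 4159 in overactivation, 948 to 1243 in underactivation and 816 to 1374 in N2. They include bar-1, which the huIs1 transgene also supplies in truncated form, at 58.5 to 82.9% of the sum in overactivation. Without bar-1 the other 4 overlapped, at 501 to 712 in overactivation, 379 to 568 in underactivation and 289 to 623 in N2.

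Summed markers of body wall muscle and of intestine were lower than in N2 on every array of both transgenic strains. The sum of 6 body wall muscle genes was 9522 to 12750 in overactivation, 11180 to 15250 in underactivation and 19390 to 20380 in N2, and that of 6 neuronal genes was 3082 to 4093 in overactivation, 3570 to 4646 in underactivation and 4574 to 5704 in N2. These sums lean on their brightest genes. On every array unc-15 was the brightest muscle gene, at log2 signals of 12.96 to 13.29 in overactivation and 13.55 to 13.70 in N2. Among neuronal genes egl-3 was the brightest in N2, at 11.27 to 11.74, against 9.66 to 10.16 in overactivation. The 6 intestinal genes summed to 755 to 1982 in overactivation, 766 to 1861 in underactivation and 2122 to 3362 in N2, with ges-1 called lower in overactivation, as was egl-3 among the neuronal genes. Not all members ran this way: elt-2, an intestinal GATA factor gene, was 1.31 above N2 in overactivation and 0.94 in underactivation, and the synaptobrevin gene snb-1 was 0.60 above N2 in overactivation (limma adjusted p = 0.116) and 0.63 in underactivation (limma adjusted p = 0.189). The germ line, where many cell cycle genes are expressed, gave 490 to 1369 over 11 genes in overactivation, 730 to 912 in underactivation and 1142 to 1505 in N2, with 0 called. The 5 hypodermal genes overlapped in all groups, at 1406 to 3361 in overactivation, 2013 to 2814 in underactivation and 2042 to 3106 in N2. So did the 3 heat shock genes, at 1715 to 4018 in overactivation, 1948 to 5385 in underactivation and 1368 to 6647 in N2. How far these shifts in marker signals entered the differences of the 10 regulators was not tested.

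The wider cell cycle machinery was read from 8 lists around the 10 regulators, with 76 of 81 listed genes measured. In overactivation against N2, 1 of the 76 was called, higher, and 21.1% had an unadjusted p under 0.05, beside 17.3% of all genes. In underactivation against N2 and in overactivation against underactivation 0 of the 76 were called (limma), with an unadjusted p under 0.05 in 15.8% of them, beside 12.7% of all genes, and in 9.21%, beside 5.9%.

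The called gene was emb-1, a subunit of the anaphase-promoting complex that FZR-1 activates. Log2 signals of emb-1 were 8.94, 8.38 and 7.65 in overactivation, 7.55, 7.46 and 8.09 in underactivation, and 5.44, 6.69 and 6.39 in N2. Both transgenic strains lay above N2 on every array, and emb-1 rose by 2.15 or 4.44-fold in overactivation (limma adjusted p = 0.0439). In underactivation it was 1.53 above N2 (limma adjusted p = 0.174), and the strains differed by 0.62. The emb-1 call was lost with any 1 array left out, at limma adjusted p of 0.0503 to 0.127 over 9 fits. Of the other 9 measured subunits and activators, 0 were called, and the median of all 10 was 0.16.

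Among partners of the 10 regulators, the 5 measured DRM complex genes, which act with LIN-35, had a median difference of 0.54 between overactivation and N2, with lin-52 at 0.90 and lin-53 at 0.55. The other E2F genes read 0.11 for efl-2 and -0.87 for efl-3. Of 9 subunits of ubiquitin ligases that act on G1 regulators the median was -0.04, with lrr-1, a substrate receptor of a CUL-2 ligase, at 1.84 (limma adjusted p = 0.172) and ddb-1 at -0.81. In each of these lists 0 genes were called.

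Genes of S phase, many of which E2F controls in other animals, had a median of 0.41 over 15 measured in overactivation against N2, of -0.34 in underactivation against N2 and of 0.36 between overactivation and underactivation. With 0 called in any of these, 4 of the 15 had an unadjusted p under 0.05 in overactivation against N2, all higher, beside 17.3% of all genes. In underactivation against N2 there were 2, both lower, beside 12.7%, and between overactivation and underactivation 3, all higher, beside 5.9%. Largest in overactivation against N2 were orc-5 of the origin recognition complex at 1.09 and cdc-6, a licensing factor, at 0.96. The 16 mitotic regulators had a median of 0.32 in overactivation against N2, with 0 called, the phosphatase gene cdc-14 at 1.34 and cyclin A, cya-1, at 1.06. The 14 other CDKs and cyclins, most of them with roles in transcription, had a median of -0.15, with cit-1.2 at -1.37, cdk-12 at -1.18 and 0 called.

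Regulators of cki-1 in larval lineages closed the set, with 5 of 6 measured and 0 called. lin-14, a heterochronic gene of early larval stages, had 8.05, 7.48 and 8.40 in overactivation, 8.33, 8.41 and 8.41 in underactivation, and 8.91, 9.999 and 9.86 in N2. It was below N2 on every array of both strains, with a difference of -1.61 in overactivation (limma adjusted p = 0.0524) and of -1.202 in underactivation (limma adjusted p = 0.184). lin-31, a forkhead gene of the VPCs, was 1.46 above N2 in overactivation (limma adjusted p = 0.0573) and 0.89 above N2 in underactivation (limma adjusted p = 0.275).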

How the data were processed

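Deposited log2 signals were taken unchanged. The authors computed these log2 values by Robust Multichip Average (RMA) in Partek, according to the submitters' processing notes, and the software version and a genome build are not given in the sources used here. The labels describe cRNA from total RNA, the methods amplified cDNA from immunoprecipitated mRNA. Columns of values not used numbered 0. Arrays of the deIs10; scm::gfp strain were not analysed here.

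Probe sets were joined to genes by gene identifier: 20766 had 1 gene, 887 several and 895 none, and only the first were named, which gave 17138 genes. After leaving out 77 array controls, limma 3.58.1 in R 4.3.3 fitted 3 groups to 22548 probe sets and moderated the variances (empirical Bayes, with 2.71 prior added to 6 residual degrees of freedom), two-sided, without a filter on low signal. It was tested on simulated data. Intervals are 95% and unadjusted. No signal was tested against background, and the number of arrays limits the precision. Figures were drawn with matplotlib 3.10.9.

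The 10 regulators, the lists and the rule for naming genes were chosen with earlier results of these data known. Named were all 10 regulators with every single-gene probe set, list genes that were called or else the 2 with the greatest absolute difference between overactivation and N2, and the 3 genes most like cdk-4 and cki-1. Marker genes were summed by list, and those called or used to check a label were named; pop-1 and bar-1 check the transgenes. Alternatives were other normalizations, a filter on dim probe sets, other moderation, the methods' ANOVA taken as the same model without moderation, array weights, a replicate block, fits of only the groups compared, the mean of a gene's probe sets, other thresholds of the study's rule, and each array left out. Present and increased calls of the study's rule were not used here. For its P, an F test over 3 groups, and for the marker sums, leaving out grd-10 or bar-1, were added after seeing the data. The genes egl-18, elt-2, snb-1, wrt-2, rnt-1 and unc-15 fall outside the rule for naming and were chosen after their values were seen.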

Additional observations from a re-analysis of the deposited data

How the results depend on the processing

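Of the 10 regulators, the number called in overactivation against N2 was 1. It was 0 after quantile normalization again (cdk-4 at limma adjusted p = 0.0577), with array weights (0.0698), with the methods' ANOVA after Benjamini-Hochberg (0.176) and with the replicate number as a fixed block (0.143), and 5 with the ANOVA's unadjusted P. With that P it was 1 in underactivation against N2 (efl-1) and 1 in overactivation against underactivation (cdk-4), in place of 0. With 1 array left out it was 0 to 2 for overactivation against N2. The cause of these shifts was not tested. The fold and P criteria of the study's rule were met by 2 of the 10, by 1 with a moderated, adjusted P and by 3 with the lower fold threshold, and by 2 with 2-fold or the F test. The filter on dim probe sets left 9 of the 10, without cdk-2.

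Arrays with the same replicate number share only a number: residuals of 5 such pairs correlated at -0.088 to 0.234, and of the other 22 pairs at -0.197 to 0.211. With the replicate block fixed, the median over the 10 genes for overactivation minus underactivation was 0.49, and signs turned for cki-2 (0.014) in overactivation minus N2, for cdk-2 (0.13) in underactivation minus N2, and for cki-2 (0.90), cdk-2 (-0.37) and efl-1 (-0.66) in overactivation minus underactivation.

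Other reversals were of differences that were not called. With the mean of a gene's probe sets, fzr-1 was -0.71 in overactivation minus N2 and -0.54 in overactivation minus underactivation, and lin-35 was -0.11 in underactivation minus N2. For cki-2, overactivation minus underactivation was 0.022 with median centring, 0.020 with array weights and 0.00096 with a random replicate block. With 1 array left out, overactivation minus N2 ran from -0.22 to 0.091 for cdk-2, -1.201 to 0.051 for cki-2 and -0.22 to 0.28 for fzr-1. Underactivation minus N2 ran from -0.69 to 0.15 for cdk-2, -0.10 to 0.39 for lin-35, -0.18 to 0.037 for fzr-1 and -1.16 to 0.092 for cki-2. Overactivation minus underactivation ran from -0.39 to 0.34 for cki-2, -0.17 to 0.32 for fzr-1 and -0.22 to 0.62 for cdk-2. cdk-4, cyd-1, cye-1, cki-1 and dpl-1 kept their sign in each comparison under every setting tried.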
